A study of Homo sapiens with 45 samples.

Results

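HEY is an established human ovarian cancer cell line of mesenchymal kind, and the comparison here is between HEY cells given a precursor of the microRNA miR-429 and HEY cells given a negative control precursor, miR-NC. The members are the 3 arrays titled as HEY with miR-429 and the 3 titled as HEY with miR-NC, 6 of the 45 arrays of the series. Each well received 33 nM of precursor with the lipid reagent Lipofectamine 2000, and total RNA was taken 48 h later. The series treated HEY, the ovarian cancer line SKOV3 and the prostate cancer line PC3 in the same way with miR-203a, miR-205, miR-429 and miR-NC, and its title asks how far such microRNAs move different cancer cells from a mesenchymal towards an epithelial state. The labels do not say that the 3 arrays of a group came from separate cultures, so the spread between arrays of a group may be technical. Unless stated otherwise, each p-value and SE below rests on that spread pooled over all 36 transfected arrays of the series, not the 6 alone. The amplification kit named in the labels is of the 3′ type, and the arrays carry 54675 probe sets, short groups of probes that each report 1 stretch of a transcript. All values are log2 levels, and every difference is the miR-429 mean minus the miR-NC mean on that scale.

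A mature microRNA guides the silencing complex to messenger RNAs that pair with its seed, bases 2 to 8 from its 5′ end, and lowers their stability or translation. miR-429 belongs to the miR-200 family, which is abundant in epithelial cells and is best known for silencing ZEB1 and ZEB2, transcription factors that repress E-cadherin (CDH1) and other epithelial genes. ZEB1 and ZEB2 in turn repress the miR-200 genes, and loss of the family is a feature of the epithelial-to-mesenchymal transition (EMT).

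The mature sequences below, from RefSeq on GRCh38.p14, show which microRNAs share the seed that was delivered, with the seed in capitals. Of 2370 mature human microRNAs in the RefSeq table, 3 carry the seed AAUACUG, namely miR-429, miR-200b-3p and miR-200c-3p. miR-200a-3p and miR-141-3p, the other family members, differ from it at 1 seed base. The remaining microRNAs of the series, miR-203a-3p and miR-205-5p, have unrelated seeds. The mature miR-429 lies on the plus strand at chr1:1169055-1169076, in the same chromosome 1 cluster as miR-200b and miR-200a.
hsa-miR-429: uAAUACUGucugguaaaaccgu
hsa-miR-200b-3p: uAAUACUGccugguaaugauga
hsa-miR-200c-3p: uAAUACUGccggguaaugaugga
hsa-miR-200a-3p: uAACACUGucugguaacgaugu
hsa-miR-141-3p: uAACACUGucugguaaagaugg
hsa-miR-203a-3p: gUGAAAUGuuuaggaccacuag
hsa-miR-205-5p: uCCUUCAUuccaccggagucug

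The control probe sets of GAPDH and ACTB, housekeeping genes that the array measures at the 5′ end, the middle and the 3′ end of the transcript, differed between the 2 groups. At the 3′ end of GAPDH the miR-NC arrays read 12.18, 12.27 and 12.39 and the miR-429 arrays 13.60, 13.57 and 13.60, a difference of 1.31. At its 5′ end the miR-NC arrays read 8.42, 8.06 and 8.62 and the miR-429 arrays 6.22, 6.43 and 6.11, a difference of -2.11. So the GAPDH transcript was higher at one end and lower at the other in all 3 miR-429 arrays, and the middle probe set differed by 1.65. ACTB differed by 0.33 at the 3′ end, 1.74 in the middle and -0.97 at the 5′ end. All 6 probe sets passed adjusted p 0.05 in limma over all probe sets, of which 49.8% were called, 24.3% higher and 25.5% lower; fitted on the 6 arrays alone, 5 did, and the 3′ probe set of ACTB had adjusted p 0.0508. The gap between the 3′ and 5′ probe sets was 3.91 ± 0.26 (SD, n = 3) for GAPDH under miR-NC and 7.34 ± 0.18 (SD, n = 3) under miR-429. For ACTB it was 7.48 ± 0.18 (SD, n = 3) and 8.78 ± 0.19 (SD, n = 3). In SKOV3, miR-429 changed the GAPDH probe sets by -0.17 to -0.04, and in PC3 by -0.50 to -0.32. miR-203a in HEY, with the same control arrays, changed them by 0.07 to 0.58. The ACTB probe sets changed by -0.04 to 0.05 in SKOV3, by -0.55 to 0.11 in PC3 and by 0.02 to 0.75 under miR-203a in HEY. The control probe sets were not examined for miR-205 in HEY.

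**Figure D1:**
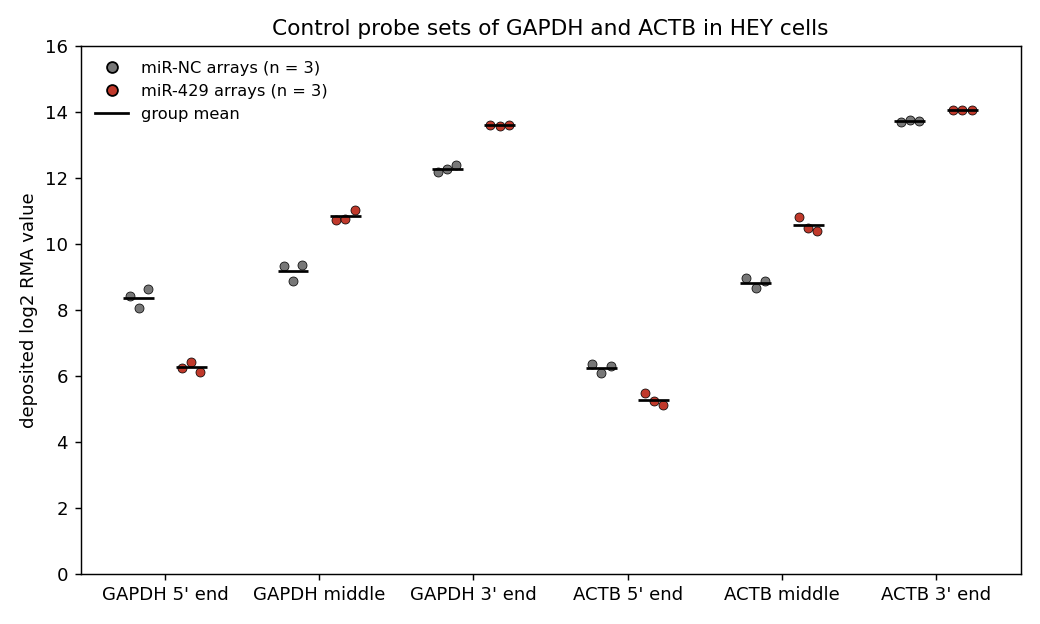
Deposited log2 level of the 5′, middle and 3′ control probe sets of GAPDH and ACTB on each HEY array, with miR-NC arrays in grey, miR-429 arrays in red and the mean of 3 arrays as a bar. The groups are separate at every probe set, with miR-429 lower at both 5′ ends and higher at the other positions.

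Other control probe sets moved as well. All 18 hybridisation spike-in probe sets, which report RNAs added during hybridisation and not made by the cells, were called higher on the miR-429 arrays, by a median of 1.71. In SKOV3 miR-429 changed the spike-in probe sets by -0.70 to 0.12 and in PC3 by 0.08 to 0.47, and miR-203a in HEY by -0.14 to -0.01. The 3 probe sets of 18S ribosomal RNA were also called higher under miR-429 in HEY, by up to 3.04. Of the 27 Bacillus subtilis probe sets, 2 were called. Whether the same difference between the array groups has a part in the gene results below was not tested. The 3 miR-NC arrays correlated with each other at 0.992 to 0.993 over all probe sets, the 3 miR-429 arrays at 0.981 and the 2 groups with each other at 0.939 to 0.941.

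Markers of line identity fitted an ovarian line in part on the 6 arrays. PAX8, a transcription factor of the Mullerian tract and of many ovarian cancers, read 10.3 to 10.5 under miR-NC and 11.1 to 11.2 under miR-429, and WT1, a further ovarian marker, read 10.3 and 9.84 to 9.92. Under miR-NC, PAX8 was at 10.7 in SKOV3 and 6.00 in PC3. WT1 was at 5.05 in SKOV3 and 9.61 in PC3, so it did not separate the ovarian lines from the prostate line. MUC16, another ovarian marker, read at most 4.44 in HEY. HOXB13, taken as a PC3 marker, read at most 5.19 in HEY, against 6.70 in SKOV3 and 6.56 in PC3 under miR-NC. CDH1 and EPCAM stayed below 4.89, the median of all values, on all 6 arrays. The leukocyte markers PTPRC, CD3E and CD14 and the prostate marker KLK3 read at most 5.14. The endothelial cadherin gene CDH5, by contrast, was at 9.71 to 10.0 in control HEY cells, against 3.30 in SKOV3 and 3.59 in PC3. PECAM1, also an endothelial marker, was at 6.26 to 6.77 in control HEY cells, against 4.58 in SKOV3 and 9.05 in PC3.

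A large part of the measured transcriptome differed between the 2 groups. Of 14997 genes tested, each by its brightest probe set, 9309 (62.1%) were called at adjusted p below 0.05 in limma, 3447 higher (23%) and 5862 lower (39.1%) under miR-429. At least 2-fold, 1209 genes were higher (8.06%) and 2223 lower (14.8%). The median over all genes tested was -0.16. In 9733 genes (64.9%) the 3 arrays of one group lay entirely above the 3 of the other. A called gene is therefore the common case in this comparison, and the counts of each gene group below are to be read against these shares.

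Probe sets of the same gene often disagreed. Of 4487 genes with 2 or more called probe sets, 2094 (46.7%) had at least 1 called higher and 1 called lower. The same count was 103 of 1212 (8.50%) for miR-429 in SKOV3, 1033 of 3167 (32.6%) for miR-429 in PC3, 72 of 750 (9.60%) for miR-203a in HEY and 1739 of 5095 (34.1%) for miR-205 in HEY. The direction of a gene in HEY can thus depend on which probe set stands for it, and this is stated below for the genes whose called probe sets were opposed.

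ZEB1 and ZEB2, the best known targets of the family, fell. ZEB1 read 11.56, 11.54 and 11.55 under miR-NC and 9.34, 9.30 and 9.35 under miR-429, a difference of -2.22 ± 0.10 (SE, n = 3 and 3; limma adjusted p 6.40e-17). The 2 groups of arrays were each tight and lay far apart. Of the 4 ZEB1 probe sets, 3 were called lower, by 2.18 to 3.05, and the remaining one differed by -0.14. ZEB2 read 9.60, 9.49 and 9.62 under miR-NC and 7.09, 7.01 and 7.05 under miR-429, a difference of -2.52 ± 0.14 (SE, n = 3 and 3; limma adjusted p 3.54e-15), and all 3 of its probe sets were called lower. ZEB2 fell far more than in the other lines, where it changed by -0.44 in SKOV3 and -0.34 in PC3, and both differences between the lines were called. For ZEB1 the response in HEY was close to the -2.15 of SKOV3, with an adjusted p of 0.714 for the difference (SE 0.14), and larger than the -0.62 of PC3. Under miR-205 in HEY, with the same control arrays, ZEB1 differed by -1.81 and ZEB2 by -1.92, both called. Under miR-203a they differed by -0.15 and 0.36, neither called.

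E-cadherin did not follow. CDH1 read 2.87, 3.05 and 2.35 under miR-NC and 2.77, 3.41 and 3.65 under miR-429, so the groups overlapped and all 6 values were near the bottom of the scale. Its difference of 0.52 ± 0.24 (SE, n = 3 and 3) had a limma adjusted p of 0.0619. It passed the threshold when array medians were subtracted (adjusted p 0.0344), without the second miR-NC array (0.0334) or without the first miR-429 array (0.00974). In SKOV3 the same probe set rose by 4.56, and the difference between the lines was -4.04 ± 0.34 (SE; limma adjusted p 1.14e-10). EPCAM, an epithelial adhesion molecule, read 3.28, 3.36 and 3.80 under miR-NC and 4.74, 4.33 and 3.70 under miR-429, with 1 overlapping array. It was called higher by 0.78, against 4.41 in SKOV3, and lost the call in the fit on the 6 HEY arrays alone (adjusted p 0.0565). ESRP1, an epithelial splicing regulator, was already on in control HEY cells at 7.57 to 7.70 and rose to 8.26 to 8.39 without overlap, with both probe sets higher. That call was lost in the fit on all 45 arrays (adjusted p 0.194). RAB25, an epithelial trafficking GTPase, differed by 0.28 and was not called (adjusted p 0.382). It was called at 0.74 without the third miR-429 array and turned to -0.03 without the first. OVOL1, an epithelial repressor of ZEB1, was called lower by 0.92, with all its values between 2.86 and 4.36.

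**Figure D2:**
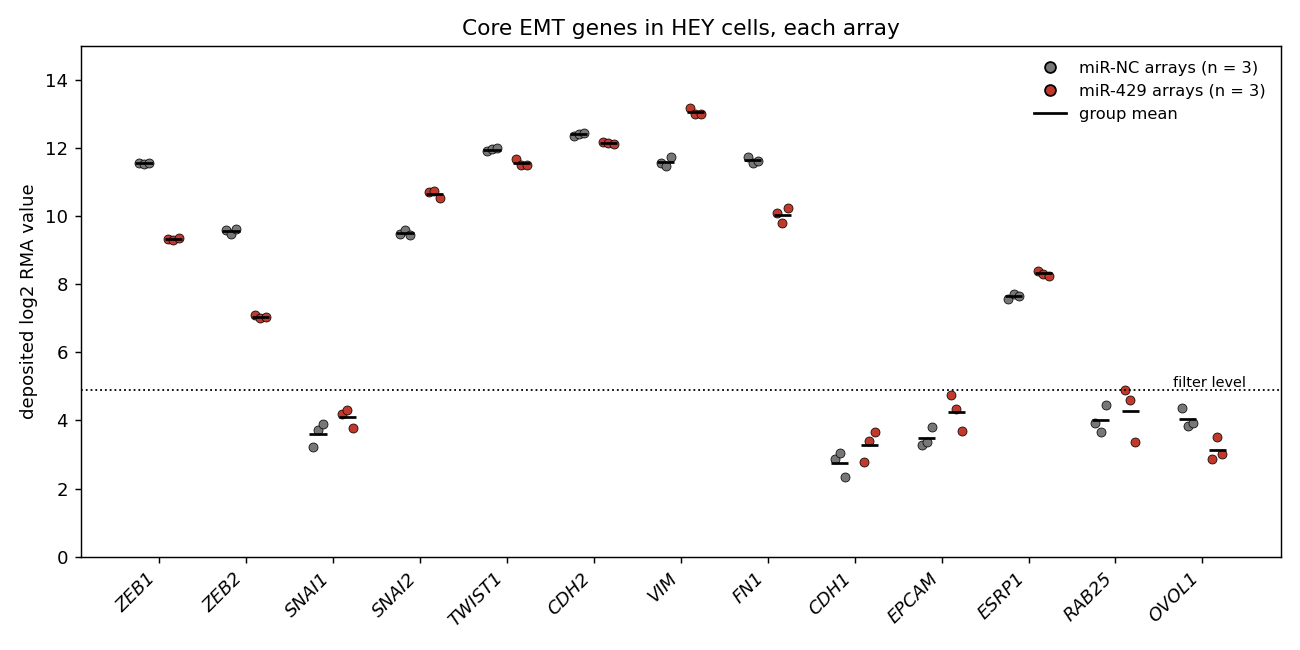
Deposited log2 level of 13 core EMT genes on each HEY array, with miR-NC in grey, miR-429 in red, a bar for the mean of 3 arrays and a dotted line at the filter level of 4.89. ZEB1, ZEB2 and FN1 sit well below their controls, SNAI2 and VIM above, and CDH1, EPCAM, RAB25, SNAI1 and OVOL1 have group means under the line in both groups.

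The mesenchymal genes of the core set moved in both directions. FN1, the matrix protein fibronectin, read 11.74, 11.58 and 11.62 under miR-NC and 10.09, 9.79 and 10.24 under miR-429. Its fall of 1.61 ± 0.11 (SE, n = 3 and 3; limma adjusted p 2.94e-13) was shared by 6 of 7 probe sets and close to that of SKOV3 (-1.69) and PC3 (-1.59). Without probe sets that can detect several transcripts (suffixes _x_at and _s_at), the FN1 probe set that stood for the gene differed by -0.16 (adjusted p 0.602). VIM, the intermediate filament vimentin, read 11.57, 11.47 and 11.74 under miR-NC and 13.17, 13.01 and 13.00 under miR-429, a rise of 1.47. Its other probe set was called lower by 0.78, and with the mean of both the difference was 0.35 (adjusted p 0.0829). In SKOV3 VIM differed by -0.13 and in PC3 by -0.16, neither called. CDH2, the mesenchymal N-cadherin, was 12.35 to 12.43 under miR-NC and 12.12 to 12.17 under miR-429. This fall of 0.26 had an adjusted p of 0.0407, and the call was lost without any 1 of the 6 arrays (adjusted p 0.0501 to 0.0937) and with array medians subtracted (0.131). Among the transcription factors, SNAI2 (SLUG) rose from 9.44 to 9.58 under miR-NC to 10.54 to 10.72, a difference of 1.16, while it did not pass in SKOV3 (0.06) and fell by 1.08 in PC3. TWIST1 fell by 0.39 from a level of 11.90 to 11.99, without overlap. SNAI1 was called higher by 0.49 near the bottom of the scale (adjusted p 0.0478) with overlapping arrays. That call was lost without 4 of the 6 arrays taken singly, among them the first miR-NC array (0.29, adjusted p 0.286). Of the 13 core genes, 5 were called higher and 6 lower.

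Published targets of the miR-200 family were lower more often than genes at large. The list of 64 was drawn up from the literature, with earlier results of these data known, and 59 of its members were tested. Of these, 40 were called lower and 6 higher, against 39.1% and 23% of all genes, and 24 fell at least 2-fold, against 14.8%. The median was -0.79, against -0.16 over all genes. The summed picture was the same on every array, with the mean level of the 59 genes at 9.89 to 9.94 under miR-NC and 9.08 to 9.15 under miR-429. Of the 35 targets with several called probe sets, 17 had opposed ones. With the same control arrays, miR-205 in HEY gave the list a median of -0.80, with 41 lower and 7 higher, where 35.1% of all genes were lower and 35.4% higher and 10573 were called in all (70.5%). miR-203a gave -0.01, with 3 lower and 7 higher, where 10.1% of all genes were lower and 8.49% higher.

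The targets with the largest falls belong to several cell processes. AP1S2, a subunit of a clathrin adaptor of the Golgi, read 11.30, 11.30 and 11.27 under miR-NC and 8.59, 8.13 and 8.31 under miR-429, a difference of -2.95. Of its 4 probe sets 3 were called lower and 1 higher, by 0.62. RECK, a membrane inhibitor of matrix metalloproteinases, went from 9.04, 9.28 and 8.89 to 6.35, 6.12 and 6.23, with 3 of 4 probe sets lower and none higher. WIPF1, which binds WASP and shapes actin filaments, went from 9.67, 9.76 and 9.45 to 7.20, 7.53 and 7.55. Of its 4 probe sets 1 was called lower and 1 higher. PPM1F, a phosphatase of the focal adhesion and stress fibre pathway, fell by 2.10 from 8.84 to 9.04, with 2 probe sets lower and 1 higher. LOX, which crosslinks collagen, fell by 2.10, from 8.01 to 8.16 down to 6.00 to 6.03. In all 5 genes every miR-429 array lay below every miR-NC array. The 5 were picked for large changes, and the groups were separate in 64.9% of all genes tested.

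Further targets fell, some of them named after their values were seen. Most of these examples had no called probe set in the other direction. Over the list, 29 lower targets had several called probe sets, and 16 of these had none higher. Among all genes tested the same count was 1394 of 2639. LHFPL6, a tetraspan membrane protein gene, went from 10.86 to 11.05 down to 8.79 to 9.13, with both probe sets lower. CRTAP, needed for prolyl hydroxylation of collagen, fell by 1.95 with 4 of 5 probe sets lower. SEC23A, a coat protein of vesicles leaving the endoplasmic reticulum, fell by 1.93 from 12.4, with both probe sets lower. CFL2, a cofilin that severs actin, fell by 1.66 with all 3 probe sets lower. MARCKS, an actin-binding membrane protein, fell by 1.00 with all 5 lower, and the Smad signal transducer SMAD2 fell by 1.38 with 4 of 5 lower. VEGFA, the vascular growth factor, fell by 1.79 with 3 of 4 lower, and it was -0.07 in SKOV3. DNMT3A, a DNA methyltransferase, fell by 1.76 with 2 probe sets lower and 1 higher. QKI, an RNA-binding splicing regulator, shows how far the choice of probe set matters. The brightest of its 10 fell by 0.36, another fell by 4.03 from 11.38 to 7.35, and 6 in all were called lower and 1 higher.

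A few targets went the other way. KLHL20, a ubiquitin ligase adaptor, rose by 2.02 on its brightest probe set, but its other 3 probe sets were called lower by 0.57 to 0.97. The mean of its probe sets differed by -0.04. TUBB3, a beta-tubulin, rose by 1.58 on both probe sets. CTNNB1, TCF7L1, FHOD1 and SP1 were called higher by 0.52 to 0.88, with opposed probe sets for CTNNB1 and SP1. The 13 targets not called ranged from -0.48 (FLT1) to 0.17 (RND3).

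**Figure D3:**
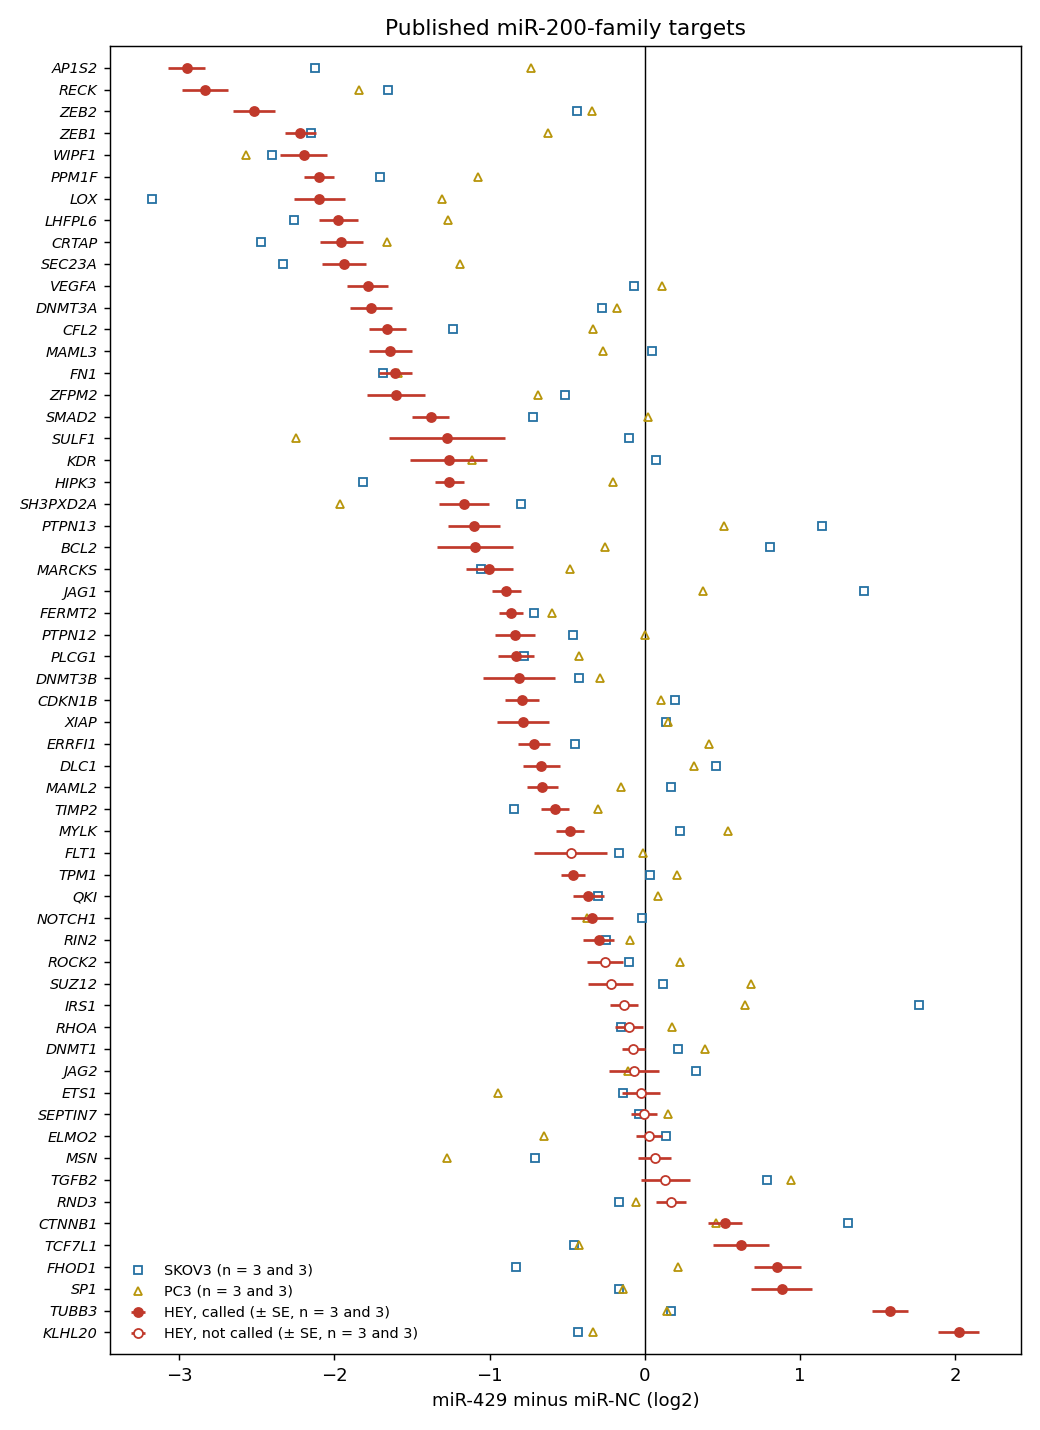
Difference between miR-429 and miR-NC for the 59 tested targets of the miR-200 family, with HEY as red circles with SE (filled where called), SKOV3 as blue squares and PC3 as yellow triangles. In HEY 40 of the 59 are called lower, from AP1S2 at -2.95 to RIN2 at -0.30, and the targets with the deepest falls in HEY are mostly lower in SKOV3 and PC3 as well.

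The other lines showed part of this pattern in separate arrays. In SKOV3 26 of the 59 targets were called lower and 8 higher, with a median of -0.25, where 9.93% of all genes were lower and 19.3% higher. In PC3 25 were lower and 11 higher, with a median of -0.21, where 31% were lower and 20.1% higher. Of the 59, 18 were lower in all 3 lines, against 2.9% of all genes tested. RECK was lower by 2.83 in HEY, 1.65 in SKOV3 and 1.84 in PC3. WIPF1 fell by 2.20, 2.40 and 2.57 in that order, with adjusted p 0.442 and 0.135 for the differences between HEY and the other lines. LOX fell by 2.10 in HEY and by 3.18 in SKOV3, and that difference was called.

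Epithelial genes were more often higher than lower. Of 46 tested, 22 were called higher and 10 lower, with a median of 0.44, and the per-array mean of the list was 5.89 to 5.94 under miR-NC and 6.34 to 6.38 under miR-429. The largest rises were in keratins of simple epithelia and in SPINT2. KRT18 went from 8.78, 8.51 and 8.97 to 12.34, 12.05 and 12.23. It is measured by 1 probe set of the _x_at kind, which can pick up related transcripts. KRT7 went from 9.11 to 9.18 up to 11.40 to 11.61, and KRT8, the partner of KRT18, rose by 1.22. SPINT2, a membrane protease inhibitor, went from 4.72, 5.05 and 5.09 to 7.17, 7.74 and 7.72. MYO5B, a motor of apical recycling, rose by 1.92 on 1 of 2 probe sets, and its other probe set differed by 0.00. OCLN, MARVELD2, CLDN3 and MAL2, membrane proteins of tight junctions and the apical surface, were called lower by 0.76 to 1.49, with opposed probe sets for MARVELD2. In SKOV3 the list had 26 higher and none lower, where 19.3% of all genes were higher and 9.93% lower. Under miR-205 in HEY, with the same control arrays, KRT18 rose by 4.18 and KRT7 by 3.12. SPINT2 differed by 0.08 there and MYO5B by 0.47.

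Tight junction and desmosome genes, which overlap that list, divided evenly, with 10 of 29 higher and 9 lower and a median of 0.01. PARD3, the polarity scaffold, rose by 2.29 on the probe set used, with 2 of its 4 probe sets higher and 1 lower. The desmosomal plaque genes PKP2 and PKP3 rose by 1.58 and 1.38, and a second PKP2 probe set was lower. CGNL1, a cingulin-like junction protein, fell by 1.96 from 6.02 to 6.22.

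Matrix genes were lower somewhat more often than genes at large, while mesenchymal genes taken as a list were not. Of 40 mesenchymal genes 14 were lower and 10 higher, with a median of -0.08, close to the background shares. Of 45 collagens, laminins and crosslinkers 22 were lower and 11 higher, with a median of -0.36, which became -0.21 without the second miR-NC array. COL6A3 went from 6.74, 7.31 and 6.93 to 4.09, 3.94 and 4.55. COL5A1 fell by 2.42, with all 3 probe sets lower, from 7.29 to 7.75 down to 4.37 to 5.64. COL4A6, a basement membrane collagen, fell by 2.66, and COL1A1 by 1.38 with 3 of 5 probe sets lower. FAP, a fibroblast surface protease, fell by 2.49 from 8.59 to 8.70. On the higher side were S100A4 (1.41), TAGLN (0.85), CCN2 (0.95) and THBS1, all 7 of whose probe sets were called higher. COL8A1 rose by 2.38 against miR-NC but by 0.35 against the miR-203a arrays (adjusted p 0.0732).

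EMT transcription factors other than those of the core set included SOX4, which fell by 2.27 on its brightest probe set. Of its 6 probe sets 2 were lower and 2 higher, and their mean rose by 0.32. TCF4, an E-protein that represses CDH1, fell by 1.57 with 6 of 8 probe sets lower and 2 higher. The whole list of EMT transcription factors, the 5 of the core set included, had 13 tested, 5 lower and 4 higher. Integrins were 5 higher and 5 lower of 16 tested, the largest fall being ITGA1 at -2.03 from 5.90 to 6.26.

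Actin cytoskeleton and adhesion genes divided into 18 higher and 21 lower of 53, with a median of -0.02. PFN1 (profilin), which feeds actin monomers to growing filaments, went from 9.43, 9.14 and 9.58 to 12.49, 12.47 and 12.55. ZYX (zyxin) rose by 1.95 and ILK, the integrin-linked kinase, by 1.88. Under miR-205 in HEY, with the same control arrays, PFN1 rose by 2.31, ZYX by 3.55 and ILK by 3.19. WIPF1 and CFL2, already named as targets, were the largest falls.

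TGF-beta, activin and BMP signalling genes were mostly lower. Of 38 tested, 23 were lower (60.5%) and 5 higher (13.2%), against 39.1% and 23% of all genes. The median was -0.48, and the per-array mean was 8.86 to 8.90 under miR-NC and 8.35 to 8.49 under miR-429. GREM1, a secreted BMP antagonist, went from 10.74, 10.80 and 10.74 to 8.87, 8.65 and 8.83, and both probe sets were lower. LTBP1, which holds latent TGF-beta in the matrix, fell by 1.95 with 1 probe set lower and 1 higher, and BMP2 fell by 1.57. The receptor genes ACVR1B, ACVR2A, ACVR2B, TGFBR1 and TGFBR3 were called lower by 0.63 to 1.56, with opposed probe sets for ACVR1B and TGFBR3. The BMP-response genes ID1, ID2 and ID3 were called higher, ID1 from 5.20 to 5.40 up to 6.94 to 8.18. In SKOV3 this list had 8 lower and 12 higher, where 9.93% of all genes were lower and 19.3% higher. Under miR-205 in HEY, with the same control arrays, it had 25 lower and 8 higher and a median of -0.83. Of all genes, 35.1% were lower and 35.4% higher under miR-205.

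Notch pathway genes had 11 of 26 lower and 3 higher, with a median of -0.29, and their share lower (42.3%) was near the background of 39.1%. The coactivator MAML3 fell by 1.64 and the target HEY1 by 1.37 from 11.23 to 11.34, with both HEY1 probe sets lower. LFNG and NRARP each fell by 1.08, LFNG by 0.16 (adjusted p 0.372) when compared with the miR-203a arrays. Polycomb and DNA methylation enzymes had 9 of 25 lower and 5 higher, a share lower of 36%, also near the background. TET1 led at -2.13, and DNMT3B fell by 0.81. Hippo pathway genes had 10 higher and 9 lower of 30, with the targets ANKRD1 at 2.03 (-0.83 against the miR-203a arrays, also called) and AMOTL1 at -1.25 (0.31 as the mean of its probe sets).

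**Figure D4:**
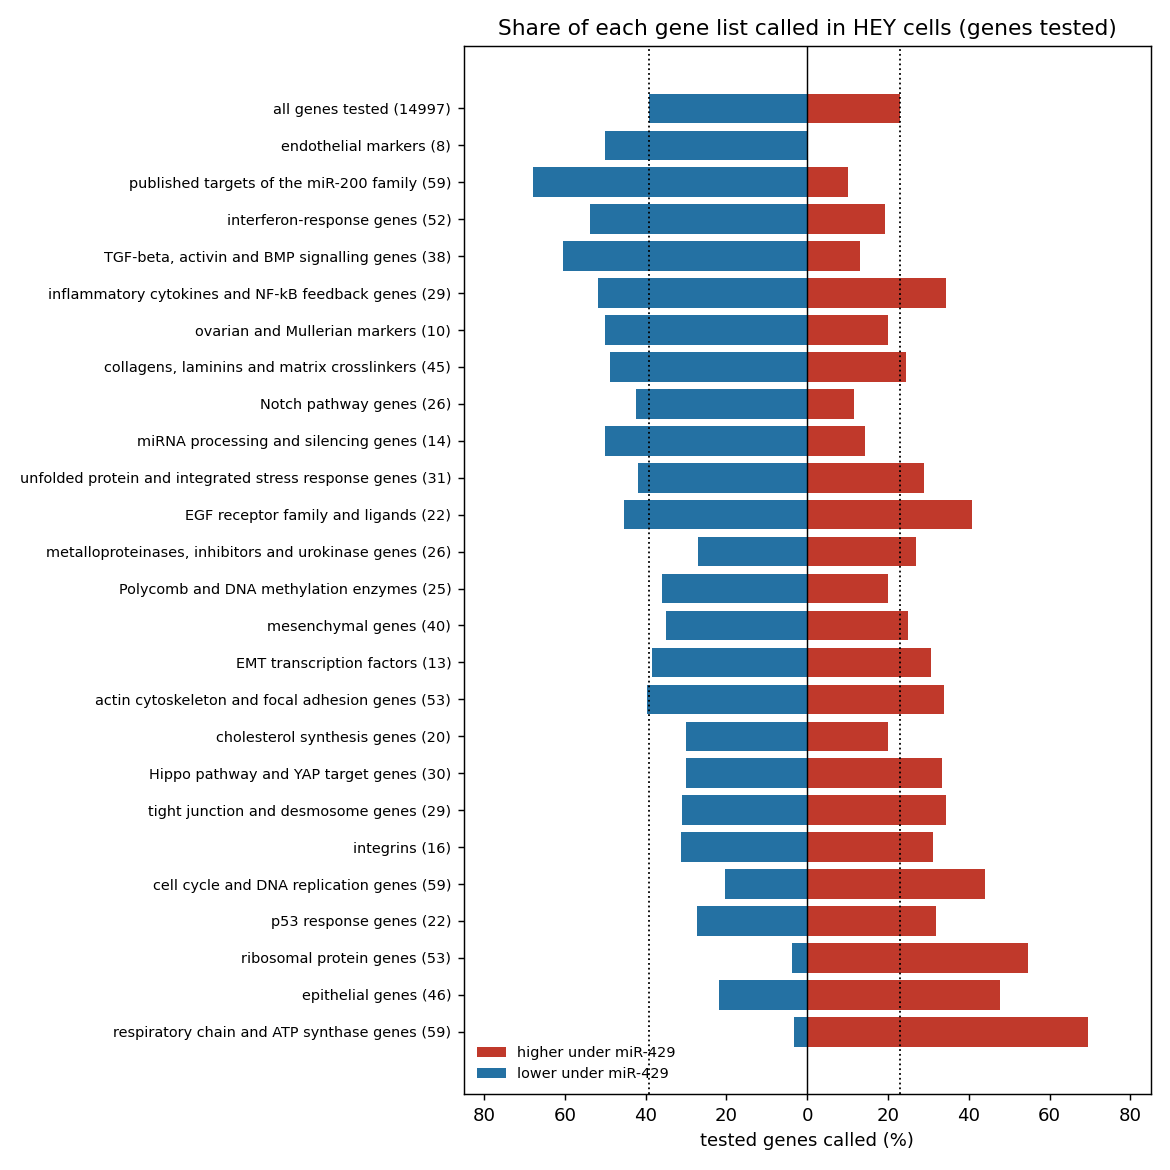
Percentage of the tested members of each gene list with at least 8 genes tested, other than the core set, called higher (red, right) or lower (blue, left) under miR-429 in HEY, with the number tested in parentheses and dotted lines at the shares of all 14997 genes. The miR-200 target and TGF-beta lists reach furthest to the left relative to the lower background of 39.1%, and the respiratory chain list furthest to the right of the higher background of 23%.

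Interferon-response genes were lower more often than genes at large. Of 52 tested, 28 were lower (53.8%) and 10 higher (19.2%), against 39.1% and 23% of all genes. The median was -0.66, and 16 fell at least 2-fold (30.8%, against 14.8% of all genes). IFIT3, an antiviral protein gene, went from 9.39, 9.39 and 9.26 to 6.05, 6.84 and 6.18, and IFIT2 from 9.08 to 9.22 down to 6.22 to 6.77, with a second IFIT2 probe set higher by 1.13. DDX60 fell by 2.53 and IFIT1 by 2.16. PSMB8, an immunoproteasome subunit, rose by 2.55 from 4.86 to 5.34, and IFITM3 by 1.42. In SKOV3 the list had 7 lower and 5 higher, with a median of -0.04, where 9.93% of all genes were lower and 19.3% higher. In PC3 it had 7 lower and 14 higher, where 31% of all genes were lower and 20.1% higher. With miR-203a in HEY, against the same control arrays, 15 were lower and none higher, with a median of -0.23. Of all genes, 10.1% were lower and 8.49% higher there. With miR-205, also against those control arrays, 23 were lower and 11 higher, with a median of -0.42. Here 35.1% of all genes were lower and 35.4% higher. Inflammatory cytokines and NF-kB feedback genes had 15 of 29 lower (51.7%) and 10 higher (34.5%), with a median of -0.45. The cytokine list turned to 0.17 with the miR-203a arrays as the control, and its median under miR-203a itself was -0.50. CXCL2 fell by 1.57, TNFAIP2 by 1.79, TLR3 by 1.77 and TNF by 1.59, while NFKBIA and NFKB1 rose by 1.29 and 1.22. Without _x_at and _s_at probe sets CXCL2 differed by -0.32 (limma adjusted p 0.368), and under miR-203a it fell by 0.99. TNFAIP2 was called lower on 1 of 2 probe sets, and the other differed by 0.38, not called.

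Genes of the respiratory chain and ATP synthase were mostly higher. Of 59 tested, 41 were higher (69.5%) and 2 lower (3.39%), against 23% and 39.1% of all genes. The median was 0.62, and 23 rose at least 2-fold (39.0%, against 8.06% of all genes). The per-array mean was 10.3 to 10.5 under miR-NC and 11.1 to 11.2 under miR-429. NDUFB9, a complex I subunit, went from 9.75, 9.60 and 10.04 to 12.45, 12.56 and 12.55. NDUFB7 went from 5.97, 6.03 and 6.24 to 8.37, 8.92 and 9.29, CYC1 of complex III rose by 1.93 and NDUFV2 by 1.89. In SKOV3 the list had 7 higher and 1 lower, with a median of 0.00, where 19.3% of all genes were higher and 9.93% lower. Under miR-205 in HEY, with the same controls, it had 49 higher and 1 lower and a median of 0.96. Of all genes, 35.4% were higher and 35.1% lower under miR-205. Ribosomal protein genes had 29 of 53 higher and 2 lower, with a median of 0.24, but -0.19 without the _x_at and _s_at probe sets. RPL35 rose by 2.13, RPL18 by 2.18 (with 1 of its 3 probe sets lower) and RPS3 by 1.95. Ribosomal protein genes have many near-identical pseudogene copies that such probes can share.

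Proliferation genes leaned to the higher side. Of 59 cell cycle and replication genes 26 were higher and 12 lower, with a median of 0.11, which turned to -0.06 without the _x_at and _s_at probe sets. CDC20, an activator of the anaphase-promoting complex, went from 9.77 to 9.85 up to 11.62 to 11.79. CCND3 rose by 1.92, CDK4 by 1.86 and the mitotic kinase PLK1 by 1.42. The checkpoint kinase CHEK1 fell by 1.30 and CDKN1B, a cell cycle inhibitor, by 0.79, while the inhibitor CDKN1A rose by 1.27. Of 22 p53-response genes 7 were higher and 6 lower, with BAX at 1.86, TNFRSF10A at 1.37 (1 of 3 probe sets lower), TP53INP1 at -1.56 and SESN1 at -1.33.

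The remaining lists were mixed. Unfolded protein and integrated stress response genes had 13 of 31 lower and 9 higher, with the chaperone genes CRELD2, HSP90B1 and SDF2L1 up by 2.39, 1.57 and 1.48 and the stress sensor ERN1 down by 1.56. Cholesterol synthesis genes had 4 higher and 6 lower of 20, with FDPS up by 1.30 and HMGCS1 down by 1.36. Genes of microRNA processing and silencing had 7 of 14 lower and 2 higher, the exporter XPO5 up by 1.21, TARBP2 up by 1.15, and AGO4 and TNRC6A down by 0.87 and 0.75, with opposed probe sets for TNRC6A. TARBP2 was called on 1 of 2 probe sets and differed by 0.23 (limma adjusted p 0.382) without _x_at and _s_at probe sets. EGF receptor family genes had 10 of 22 lower and 9 higher, with ERBB4 falling by 2.79 and the feedback inhibitor SPRY1 by 2.52. Proteases and inhibitors had 7 higher and 7 lower of 26, TIMP1 rising by 1.73 and PLAT falling by 1.70. Of 8 endothelial markers 4 were lower and none higher. TEK fell by 2.80, PECAM1 by 2.53, CDH5 by 1.51 and KDR by 1.26. Of 10 ovarian and Mullerian markers 5 were lower and 2 higher, of 6 prostate luminal markers 1 was higher and 1 lower, and of 4 blood markers 1 was higher and 2 lower. Markers of line identity had 5 of 7 higher and none lower, namely KRT18, VIM, KRT8, PAX8 and ERBB2. ERBB2 differed by 0.92 on the probe set used and by -0.18 as the mean of its probe sets.

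KRT18 apart, the 10 largest rises and the 10 largest falls with separate arrays were in genes not described so far. BRD2, a bromodomain reader of acetylated histones, read 5.53, 5.35 and 5.77 under miR-NC and 10.32, 10.11 and 10.05 under miR-429, a rise of 4.61. Of its 3 probe sets 2 rose and 1 was lower by 0.66. LMO7, an actin- and junction-associated protein gene, rose by 4.48 on one probe set and fell by 1.61 on the other. ZBED2, a transcription factor gene, went from 4.33, 4.52 and 4.32 to 8.46, 8.65 and 8.55. It also rose by 3.20 under miR-203a and by 3.34 under miR-205 against the same control arrays, and compared with the miR-203a arrays it was higher by 0.96. PPIB, a chaperone of the endoplasmic reticulum, rose by 3.64, the proteasome subunit PSMB3 by 3.40 and FAM111B by 3.41. H1-1 (3.86), a linker histone gene, and ANKRD36B (3.18) belong to families of near-identical copies. DSG2-AS1 (4.13) is an antisense gene whose reading cannot be told apart here from its sense partner DSG2. Under miR-205, against the same control arrays, PPIB rose by 3.38, PSMB3 by 3.10, BRD2 by 2.57, H1-1 by 2.46 and DSG2-AS1 by 1.64. ANKRD36B rose by 1.08 there and LMO7 by 0.61, while FAM111B differed by 0.15 and was not called.

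Among the falls, DACT1, an inhibitor of Wnt signalling, went from 8.91, 8.78 and 8.69 to 5.06, 4.76 and 5.03. EPPK1, the cytoskeletal linker epiplakin, went from 9.05, 8.91 and 9.18 to 4.99, 5.51 and 5.36, with 2 of 3 probe sets lower. SH3YL1 fell by 3.55, the glycosyltransferase gene GALNT16 by 3.52, the semaphorin receptor PLXNC1 by 3.48 (with opposed probe sets) and the endoribonuclease ENDOU by 3.40. SMIM17 fell by 3.57 and the antisense gene SNTG2-AS1 by 4.38. Under miR-203a, with the same controls, SNTG2-AS1 differed by -3.11, ENDOU by -2.79 and EPPK1 by -2.48. Compared with the miR-203a arrays, their differences under miR-429 were -1.27, -0.61 and -1.28 in that order. SLC44A5, a choline transporter-like gene, fell by 4.06 on the probe set used, but by 0.12 (adjusted p 0.632) when no filter on dim probe sets was applied and another probe set stood for it. Under miR-205, against the same controls, PLXNC1 differed by -3.95, EPPK1 by -3.90, DACT1 by -3.86, SLC44A5 by -3.81 and SMIM17 by -3.20. SNTG2-AS1 differed by -2.40 there, ENDOU by -2.37, SH3YL1 by -1.38 and GALNT16 by -0.70. In these 20 largest changes the 2 groups of arrays did not overlap, as the naming rule required.

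The response of HEY differed from that of the other lines in many genes. Tested as a difference of responses, 8322 genes (55.5%) differed between HEY and SKOV3 and 9184 (61.2%) between HEY and PC3. Of the 5862 genes lower in HEY, 823 (14.04%) were also lower in SKOV3, which is 55.3% of the 1489 lower there and 5.49% of all genes tested. Another 1211 genes (8.07%) were lower in HEY and higher in SKOV3. EPPK1 fell by 3.76 in HEY and rose by 2.07 in SKOV3, and NEDD9, an adhesion scaffold, fell by 3.31 in HEY and rose by 2.15 in SKOV3. BRD2 and LMO7, the 2 largest rises in HEY, differed by -0.17 and 0.24 in SKOV3 and by -0.14 and -0.08 in PC3. LINC00173 fell by 2.72 in HEY and rose by 1.09 in PC3.

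**Figure D5:**
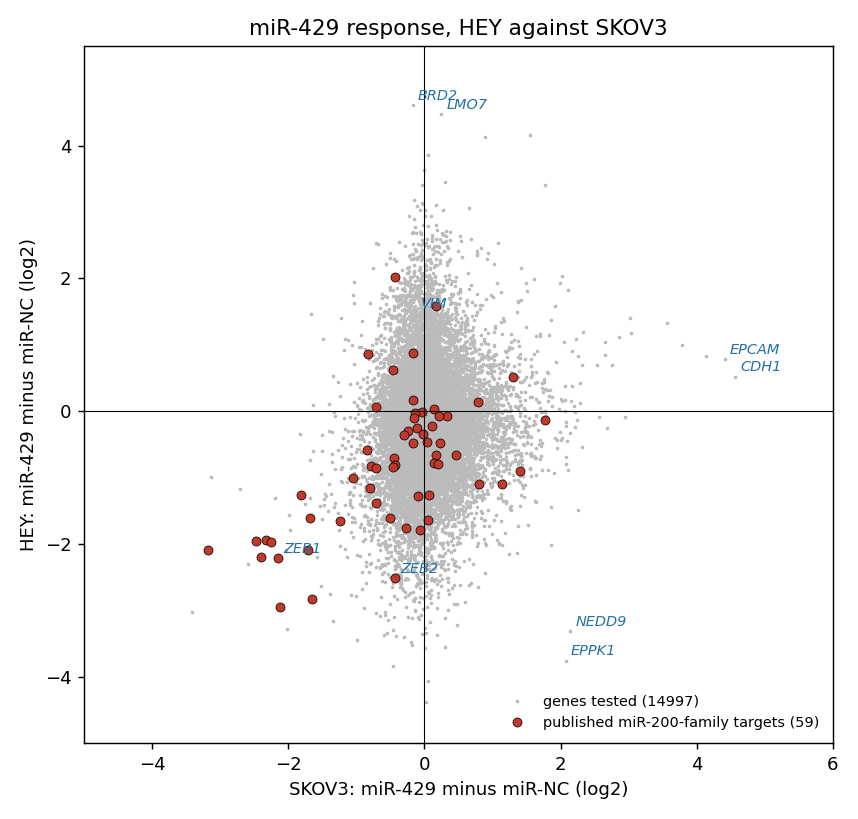
Difference between miR-429 and miR-NC in SKOV3 (horizontal) and HEY (vertical), both log2, for 14997 genes (grey) and 59 published miR-200-family targets (red). A group of targets including ZEB1 lies low in both lines, CDH1 and EPCAM lie far to the right at 4.56 and 4.41 in SKOV3 with small values in HEY, and BRD2 and LMO7 are high in HEY alone of these 2 lines.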

How the data were processed

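The authors deposited log2 expression values for the 54675 probe sets of a human whole-transcriptome array; RMA is the tool in the submitters' processing notes, and its settings are not given in the sources used here. Of the probe sets, 41097 carry 1 gene symbol, 1801 several and 11777 none. A gene was tested if a probe set with its symbol alone had a mean above 4.89, the median of all values, in at least 1 group, and its brightest probe set stood for it. limma 3.58.1 (R 4.3.3; lmFit, eBayes) was fitted to the 36 transfected arrays (12 groups of 3, 24 residual degrees of freedom), with no block, two-sided tests and Benjamini-Hochberg adjustment over all 14997 genes. Control probe sets and single probe sets were tested in the same model over all probe sets. The 9 arrays labelled untransfected were left out, because genes that mark the lines go against their labels. The script was tested on simulated data. The number of arrays limits the precision.

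The comparison and the 29 gene lists were chosen with earlier results of these data known. Named genes were the 10 largest rises and falls with separate arrays, the core genes, up to 10 called miR-200 targets, up to 4 called genes of each other list, and the 3 largest differences from each other line; further list members, and QKI, were named after their values were seen. One of the 10 largest falls is not reported here. Replicate numbers were checked for pairing. Other array sets, normalisations, filters, probe set rules, models and controls were tried, as was leaving out each array.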

Additional observations from a re-analysis of the deposited data

Results flagged for a closer look

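The following responses to miR-429 differed between HEY and another line by a test of the difference itself (limma, adjusted over all genes), each given as HEY minus the other line on the log2 scale. Over all genes, 8322 differed from SKOV3 and 9184 from PC3.

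Among the core genes, CDH1 (-4.04), EPCAM (-3.63), ZEB2 (-2.08), OVOL1 (-1.10), CDH2 (-0.83) and TWIST1 (-0.55) were lower in HEY relative to SKOV3, and VIM (1.60) and SNAI2 (1.10) were higher. Relative to PC3, ZEB2 (-2.18), ZEB1 (-1.60), CDH2 (-0.82) and TWIST1 (-0.54) were lower, and SNAI2 (2.24), VIM (1.63) and SNAI1 (0.91) were higher. The VIM difference from SKOV3 was 0.44 (adjusted p 0.132) when both probe sets were averaged, and the SNAI1 difference lost its call under quantile normalisation (0.41, adjusted p 0.271) and with array medians subtracted (0.57, adjusted p 0.102).

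Among the genes with the largest differences, BRD2 differed from SKOV3 by 4.78 and from PC3 by 4.75, LMO7 by 4.23 and 4.55, and H1-1 by 3.81 and 4.74. EPPK1 differed by -5.83 from SKOV3 and -4.17 from PC3, and SNTG2-AS1 by -4.40 and -4.71. NEDD9 differed from SKOV3 by -5.46 and LINC00173 from PC3 by -3.80. The GAPDH and ACTB control probe sets also differed between the HEY groups, and their part in these differences was not tested.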

How the results depend on the processing

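The number of genes called in HEY stayed within 1.5 times of 9309 under the other array sets, normalisations, filters, probe set rules and models. It ran from 7524 without _x_at and _s_at probe sets to 10252 with no filter. Normalisations, filters and the _x_at and _s_at rule can change how many genes are tested, so these counts are not shares of 14997. In the main fit, asking for at least 2-fold left 3432 of 14997, with 1209 higher (8.06%) and 2223 lower (14.8%). Leaving out each array gave 8710 to 9010 genes, 3185 to 3366 higher and 5525 to 5745 lower. The targets called lower were 24 at 2-fold. Their median of -0.79 became -0.73 with array medians subtracted, -0.65 when each gene's probe sets were averaged and -0.71 without _x_at and _s_at probe sets. At least 2-fold, 4149 of the 14997 genes tested differed from SKOV3 and 4731 from PC3. Directions of single genes turned for SOX4 (0.32), AMOTL1 (0.31), KLHL20 (-0.036), EBP (-0.14) and ERBB2 (-0.18) with the mean of probe sets, for AP1S2 (0.62) and KLHL20 (-0.63) without _x_at and _s_at probe sets, for ANKRD1 (-0.83) with miR-203a arrays as the control, and for RAB25 (-0.028) without the first miR-429 array, while without the third it passed the threshold at 0.74; the causes were not tested. List medians changed sign in 34 of 521 recomputations, in 13 of 29 lists. With the replicate block, 9276 genes were called; same-numbered arrays correlated at 0.01 to 0.03 in their deviations, each best with its own number, which is a hint from the data and too weak to pair them. No depth is defined for arrays, and 1628 of the 9309 called genes had a group mean below 4.89.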

Other observations

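Genes lower under miR-429 in HEY, SKOV3 and PC3 numbered 435 of 14997 tested (2.9%), and several outside the target list are described here; they were chosen after their values were seen. OSTM1, which encodes a lysosomal membrane protein, read 11.31, 11.35 and 11.18 under miR-NC in HEY and 8.31, 8.12 and 8.35 under miR-429. It fell by 3.02 in HEY, 3.41 in SKOV3 and 1.89 in PC3, and all 4 of its HEY probe sets were called lower. PANX1, a membrane channel gene, fell by 2.30, 2.59 and 1.11 in the same order, again with all 4 HEY probe sets lower. NREP fell by 3.28, 2.02 and 0.68. HMOX1, the haem-degrading enzyme, fell by 0.99 in HEY and more in SKOV3 (-3.14) and PC3 (-2.52).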
